A study of Mus musculus with 6 samples.

Results

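The genes of the AP-1 transcription factors were examined in chromatin accessibility data from neural stem cell (NSC) cultures of the adult mouse subependymal zone (SEZ). They were 9 of the 21938 protein-coding genes of the annotation, namely *Fos*, *Fosb*, *Fosl1*, *Fosl2*, *Jun*, *Junb*, *Jund*, *Atf3* and *Batf3*. The assay was ATAC-seq, where a transposase inserts adapters into open DNA and stretches rich in insertions are called as peaks. All cultures came from mice aged 10 weeks and were Srr2 del/del, that is, both copies of *Srr2*, one of the enhancers of *Sox2*, had been deleted with CRISPR-Cas9. The cells were first grown as neurospheres with 20 ng/ml epidermal growth factor and 10 ng/ml fibroblast growth factor. By the study's methods, single cells then had 2 days on Matrigel with fibroblast growth factor (PROLIF). DIFF cultures had the same 2 days and then 1 day with 2% fetal bovine serum and no mitogen, so the states differ in age of the culture, mitogen and serum together. Each state had 3 libraries of 50000 cells, replicates 1, 2 and 4. The study calls its replicates biological, the labels do not say which founder line each came from, and wild-type cultures were not analysed here.

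AP-1 is a dimer of basic leucine zipper proteins, usually a member of the Fos family bound to a member of the Jun family, and it binds the letters TGAGTCA or TGACTCA. Most of its genes are immediate early genes, switched on within minutes of growth factor, serum or stress signals. The signal reaches them largely through SRF and its ELK partners at CArG boxes (the serum response element) and through CREB-related factors at cAMP response elements (CRE). In neural cells they are known as markers of recent stimulation, and in cultures they follow mitogens.

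Peaks overlapping each gene body plus 50 kb on either side were taken from the 6 lists, which held 60006 to 88039 peaks. Peaks that overlapped were merged, giving 119719 regions in the genome and 142 in the windows of the AP-1 genes, of which 6 lie in the windows of both *Atf3* and *Batf3*, neighbours on chromosome 1. PROLIF replicate 4 had the shortest list. DIFF replicate 4 had the longest list and the lowest median fold enrichment, 4.28 against 4.92 to 5.81 in the other libraries. Over regions found in all 6 libraries, ranks of peaks correlated at 0.901 to 0.936 within a state and at 0.758 to 0.793 between states (Spearman, across regions, which are not independent replicates). All 7 markers of neural stem or progenitor cells had a promoter peak in every library. Over all protein-coding genes, 64.4% had one in all 6 libraries. Among markers of other cells this held for 3 of 5 neuronal, 2 of 4 oligodendrocyte, 2 of 5 microglial and 1 of 5 endothelial genes. No library had one at *Dcx*, *Sox10*, *Cx3cr1*, *Cldn5*, *Cdh5* or *Tek*. The lists are short, and the neuronal count is near the share of all genes. Per library, promoter peaks were found at 3 to 4 microglial markers in both states, and at 2 endothelial markers in PROLIF and 1 in DIFF. Of these markers the microglial gene *P2ry12* was lower in DIFF (difference -0.76, limma adjusted p = 0.0137), as were 1.2% of all promoters tested. *Csf1r*, the other microglial gene tested, differed by 0.23 (limma adjusted p = 0.568). *Aif1* had a promoter peak in every DIFF and 2 PROLIF libraries, and *Tmem119* in every PROLIF and 2 DIFF libraries. *Pecam1* had one in every PROLIF library and no DIFF library. The share of all genes with these patterns was not counted. The part of microglial and endothelial cells in the results was not tested. The window from 3 to 5 kb downstream of *Sox2*, which holds the enhancer's place, had a peak in 1 library, DIFF replicate 4.

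The promoters of the AP-1 genes were open in both states. A promoter peak, lying within 3 kb of an annotated start site, was found in all 6 libraries at 8 of the 9 genes, against 64.4% of all protein-coding genes. The exception was *Fosl1*, which encodes FRA-1, with no peak in PROLIF replicate 4. Peaks were ranked within their own list by the −log10 p of the peak caller, and the percentile of the best promoter peak is given here (100 is the strongest of the list). Fold enrichment is the signal at the summit over the local background of the same library. Differences between states are DIFF minus PROLIF on quantile-normalised log2 fold enrichment, from limma fitted to all 14126 genes with a promoter peak in all 6 libraries. Values of libraries are listed in the order of replicates 1, 2 and 4. By mean percentile the order was *Jun*, *Jund*, *Fosl2*, *Fosb*, *Atf3*, *Junb*, *Fos*, *Batf3* and *Fosl1*. The ranges of neighbours in this order overlapped, apart from *Fos* and *Batf3* and from *Batf3* and *Fosl1*.

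**Figure D1:**
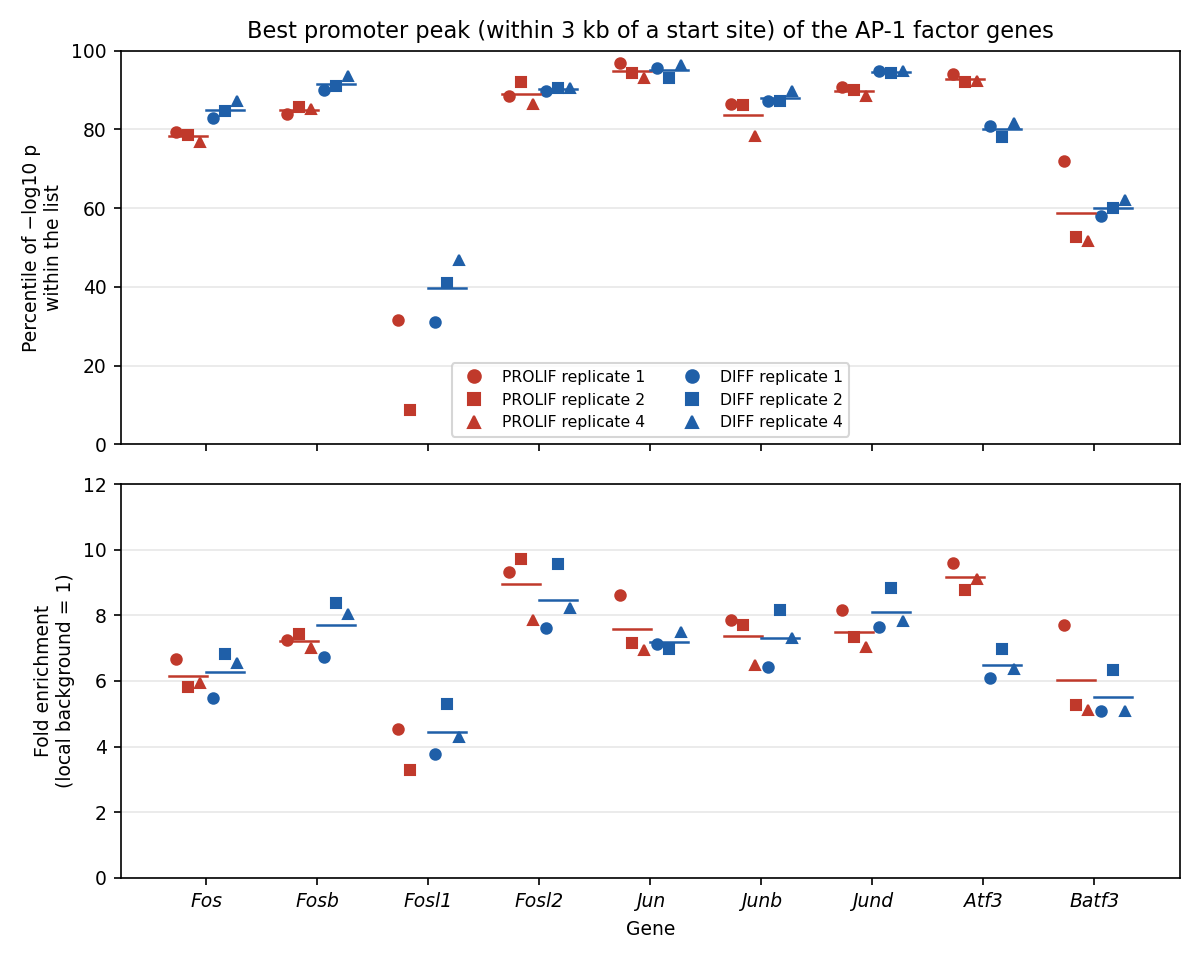
Best promoter peak of each AP-1 gene in the 6 libraries (points, red PROLIF and blue DIFF, shape by replicate), as the percentile within the list (upper panel) and as fold enrichment over local background (lower panel). Lines mark the mean of 3 libraries. Only *Atf3* lies lower in every DIFF library on both scales, and *Fosl1* lacks a peak in PROLIF replicate 4.

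Of the 8 AP-1 promoters tested, 1 was lower in DIFF and 0 were higher, where 1.2% of all promoters tested were lower and 0.623% higher. The lower one was *Atf3*, which encodes a stress-induced factor of the CREB/ATF group that pairs with Jun proteins (ENSMUSG00000026628.13, chr1:191170296-191218039, minus strand, GRCm38). Its promoter peak had a fold enrichment of 9.59, 8.78 and 9.12 in PROLIF and 6.08, 6.98 and 6.37 in DIFF. All PROLIF libraries thus lay above all DIFF libraries, with means of 9.17 ± 0.406 and 6.48 ± 0.459 (SD, n = 3). Its percentiles were 94.1, 92.1 and 92.4 in PROLIF and 80.8, 78.1 and 81.7 in DIFF, again without overlap, and the peak was still a strong one in every DIFF list. The difference was -0.51 with a standard error of 0.10 (limma, adjusted p = 0.0394). This call held without PROLIF replicate 1 (-0.59, limma adjusted p = 0.0397) but was lost on leaving out PROLIF replicate 2 or 4 or DIFF replicate 1, 2 or 4, when the difference was -0.43 to -0.52 and the limma adjusted p 0.0757 to 0.132. Chromosome 1 took 8.66% to 10.6% of the peaks of a list, and after centring each library per chromosome the difference was -0.46 (limma adjusted p = 0.0542). The same stretch taken as a merged region, chr1:191182368-191183885, differed by -0.44 (limma adjusted p = 0.0523) and was not called. The E-box CAGATG, the site of proneural and other bHLH factors, was found within 100 bp of its summit, as in 17.3% of all regions. The promoter region of *Fos*, which was not called, holds one too. A stretch upstream of the *Atf3* start site under this peak is shown because it is the AP-1 promoter that changed. Capitals mark the E-box, which reads CATCTG on this strand (GRCm38, chr1:191183528-191183588, minus strand):
Atf3 promoter: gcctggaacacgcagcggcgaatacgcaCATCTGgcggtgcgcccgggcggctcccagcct

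*Fos* and *Fosb*, the Fos proteins with full activation domains, had promoters that ranked higher in DIFF without a called change in fold. For *Fos* (ENSMUSG00000021250.13, chr12:85473890-85477273, plus strand) the percentile was 79.4, 78.6 and 76.9 in PROLIF and 82.9, 84.8 and 87.2 in DIFF. Fold enrichment of the same peak was 6.67, 5.82 and 5.95 in PROLIF and 5.49, 6.81 and 6.56 in DIFF, and the groups overlapped. The difference was 0.04 (SE 0.10, limma adjusted p = 0.904). For *Fosb* (ENSMUSG00000003545.3, chr7:19302696-19310051, minus strand) the percentile was 84.0, 85.6 and 85.3 in PROLIF and 89.9, 91.1 and 93.7 in DIFF. The best peak of *Fosb* was not in one place. A region just before the start site differed by 0.00 (limma adjusted p = 0.992). A region 1.4 kb after it, inside the gene, had a fold enrichment of 6.10, 5.43 and 6.52 in PROLIF and 6.74, 8.37 and 8.06 in DIFF. That second region lay higher in every DIFF library, but its difference of 0.42 (SE 0.16) did not pass (limma adjusted p = 0.115).

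*Jund*, *Junb*, *Fos* and *Fosb* made up 4 of 8 promoters whose percentile was higher in every DIFF than in every PROLIF library, beside 26.0% of all promoters tested. By fold enrichment 0 of the 8 were higher in every DIFF library, beside 3.96% of all promoters tested. *Atf3* was the 1 lower in every DIFF library on either scale, beside 4.79% of all promoters by percentile and 5.15% by fold. For *Jund*, the broadly expressed Jun protein (ENSMUSG00000071076.6, chr8:70698949-70700616, plus strand), the percentile was 90.8, 89.9 and 88.6 in PROLIF and 94.9, 94.4 and 94.7 in DIFF. Its fold enrichment overlapped between the states, 8.15, 7.35 and 7.02 against 7.66, 8.85 and 7.84, with a difference of 0.10 (SE 0.09, limma adjusted p = 0.687). *Junb*, whose protein is often an antagonist of JUN in growth control (ENSMUSG00000052837.6, chr8:84974484-84978718, minus strand), had percentiles of 86.4, 86.2 and 78.4 in PROLIF and 87.3, 87.1 and 89.8 in DIFF. This strongest *Junb* peak was not at the coding start site but 2.0 kb after it, just past the coding transcript, where a non-coding transcript of the gene begins. At the coding start site itself the *Junb* region had percentiles of 77.2, 72.2 and 72.0 in PROLIF and 75.0, 72.4 and 84.1 in DIFF. Neither region of *Junb* was called (differences of 0.05 and -0.02, limma adjusted p = 0.858 and 0.938).

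*Jun*, which encodes the main partner of the Fos proteins (ENSMUSG00000052684.4, chr4:95049034-95052222, minus strand), had the highest mean percentile of the family, although its range overlapped that of *Jund* and its fold enrichment was below that of *Fosl2* in both states. Its percentile was 96.9, 94.3 and 93.1 in PROLIF and 95.7, 93.0 and 96.5 in DIFF, and the difference in fold was -0.08 (SE 0.10, limma adjusted p = 0.794). *Fosl2*, which encodes FRA-2 (ENSMUSG00000029135.10, chr5:32135801-32157842, plus strand), had percentiles of 88.6, 92.1 and 86.6 in PROLIF and 89.8, 90.6 and 90.6 in DIFF, with a difference of -0.11 (SE 0.10, limma adjusted p = 0.716). The weakest promoters were those of *Batf3* and *Fosl1*. *Batf3*, known for its role in dendritic cells and lacking an activation domain (ENSMUSG00000026630.9, chr1:191097847-191108945, plus strand), had percentiles of 72.1, 52.6 and 51.7 in PROLIF and 57.9, 60.0 and 62.1 in DIFF. In PROLIF replicate 1 stood well above the other two, and the difference was -0.08 (limma adjusted p = 0.785). *Fosl1* (ENSMUSG00000024912.6, chr19:5447547-5455946, plus strand) had percentiles of 31.6 and 8.71 in PROLIF replicates 1 and 2 and 31.0, 41.1 and 46.8 in DIFF. It was not tested, since a test needed a peak in all 6 libraries. Over the 7 tested promoters without a call, differences ran from -0.11 to 0.10. The median over the 8 was -0.05, beside 0.01 over all promoters.

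CArG boxes, the letters read by SRF, recurred in the peaks of these genes. Within 100 bp of the summit a CArG box was found in 6 of the 142 window regions (4.23%), beside 1.08% of all regions. Of the 67 window regions with a peak in all 6 libraries it was in 5 (7.46%), beside 1.01% of all such regions. A match of letters is a description and not evidence of binding. Those 5 included the promoters of *Fos* and *Fosb* and the region 2.0 kb after the *Junb* start site, inside the annotated gene. The others were a region 12.3 kb after the *Fos* start site and one in the window of *Fosl1*. The latter lies near the starts of *Cfl1*, *Mus81* and *AC126029.2*. The first 4 are shown because they hold the letters of the serum response element in or near the AP-1 genes themselves, with the CArG box in capitals, each on its gene's strand in GRCm38. They lie at chr12:85473556-85473616, chr7:19310283-19310343, chr8:84976599-84976659 and chr12:85486089-85486149:
Fos promoter: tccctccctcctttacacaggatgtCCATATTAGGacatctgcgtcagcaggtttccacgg
Fosb promoter: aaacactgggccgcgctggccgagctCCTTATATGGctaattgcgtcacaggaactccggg
Junb +2.0 kb: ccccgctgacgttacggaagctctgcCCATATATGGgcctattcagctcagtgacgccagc
Fos +12.3 kb: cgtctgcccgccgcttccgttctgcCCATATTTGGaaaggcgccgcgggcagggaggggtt

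The CArG boxes of the *Fos* and *Fosb* promoters start 309 and 266 bases before the start site, read on the gene's strand. None of these 4 regions was called between the states, with differences of 0.11, 0.00, 0.05 and 0.20 in the order shown (limma adjusted p = 0.639, 0.992, 0.858 and 0.344). The *Fos* +12.3 kb region (chr12:85485759-85486529, intergenic) had a fold enrichment of 13.9, 10.7 and 8.75 in PROLIF and 10.9, 13.4 and 12.9 in DIFF. PROLIF replicate 1 was the highest and PROLIF replicate 4 the lowest of the 6 libraries, so the states overlapped. A CRE, the letters TGACGTCA, stands 214 bases before the *Jund* start site under a peak found in every library, and is shown in capitals as the single CRE match in a promoter of the family (chr8:70698709-70698769, plus strand):
Jund promoter: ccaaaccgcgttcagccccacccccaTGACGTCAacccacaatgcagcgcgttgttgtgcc

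RefSeq's promoters of GRCm38.p6 run from 250 bases before to 50 after RefSeq's own start, and 8 of the 9 genes were matched, without *Fosl1*. The CArG box, the CRE and the AP-1 letters were found in 0 of these 8 windows. Of all 32851 promoters of that length 1.63% held a CArG box, 1.79% a CRE and 5.2% an AP-1 match. The CArG boxes of *Fos* and *Fosb* lie just beyond their windows. RefSeq places the *Jund* window further upstream (chr8:70697489-70697788), so it does not cover the CRE shown above.

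The surrounding chromatin was shared between the states in part. Of the 142 window regions, 67 (47.2%) had a peak in all 6 libraries, beside 33.5% of all regions. These windows are rich in start sites, with 56.3% of regions within 3 kb of one beside 29.9% of all regions. By class, 14 of 20 regions at the genes' own promoters, 33 of 60 at other promoters (55.0%, beside 52.6% of all regions near a start site) and 20 of 62 distal regions (32.3%, beside 25.3% of all distal regions) were found in all 6. A further 32 regions were found in 1 library. The number of peaks in all windows together was 14.2 ± 0.968 per 10000 peaks of the list in PROLIF and 14.1 ± 0.804 in DIFF (SD, n = 3), and the libraries of the states overlapped.

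**Figure D2:**
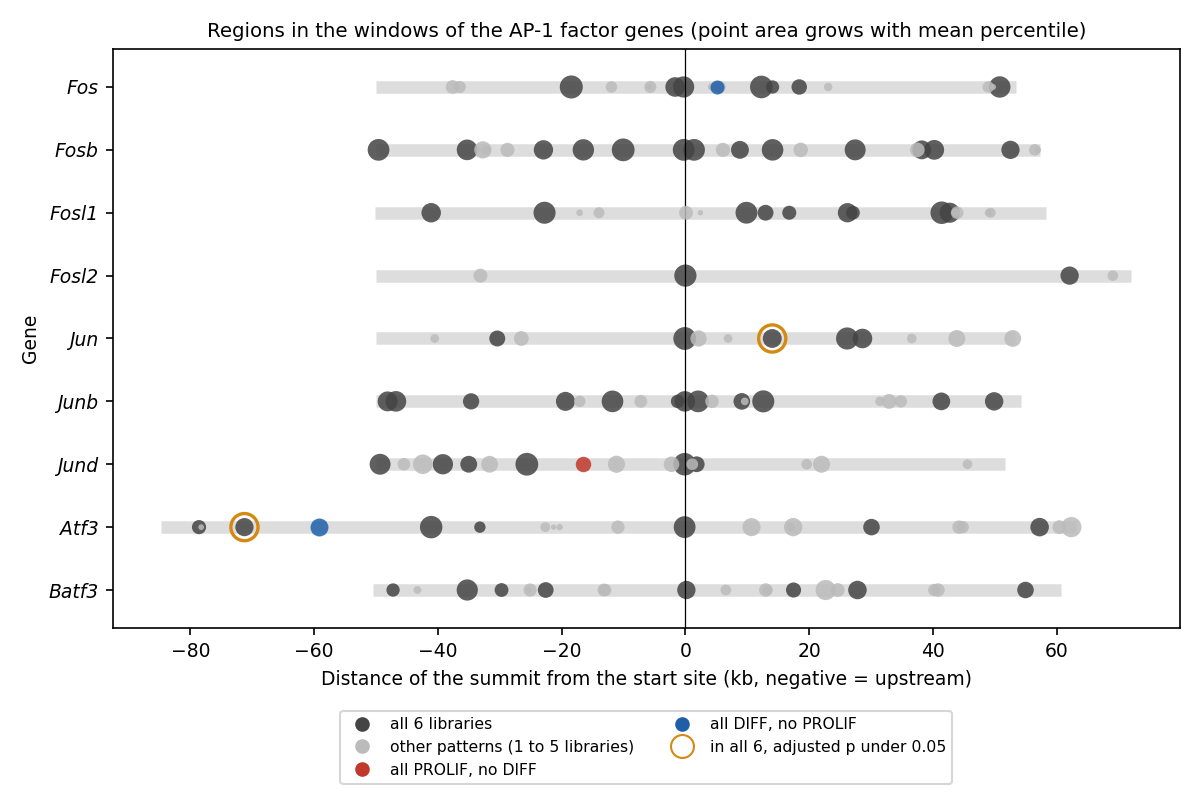
Positions of the merged regions in the window of each AP-1 gene, as the distance of the summit from the gene's coding start site in kb. Points are regions, black for a peak in all 6 libraries, grey for other patterns, red for PROLIF alone and blue for DIFF alone, with an area that grows with mean percentile, and rings mark the 2 regions with adjusted p under 0.05. Regions in both the *Atf3* and the *Batf3* window are drawn for each gene.

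For single genes the number of window peaks separated the states at 1 of 9. The *Fosb* window held 20, 18 and 18 peaks in PROLIF and 15, 17 and 18 in DIFF. Per 10000 peaks of the list this was 2.42, 2.71 and 3.01 in PROLIF and 2.11, 2.41 and 2.05 in DIFF, lower in every DIFF library, as for 9.08% of all protein-coding genes (8.89% were higher). With lists cut to equal length, or with windows of 25 kb, 0 of 9 genes separated the states.

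Regions of one state alone were few. A peak in every PROLIF and no DIFF library was found at 1 of the 142 regions, where 1.79% of all regions had this pattern. The reverse was found at 2, where 3.48% of all regions had it. The PROLIF-only region lies 16.6 kb before *Jund* between genes (chr8:70682255-70682483). It had a fold enrichment of 6.04, 5.33 and 4.00 in the PROLIF libraries, at percentiles 49.4, 45.4 and 28.2, in the middle and lower part of each list. It kept this pattern when any library was left out and with lists of equal length, and had no peak in every PROLIF list once the lists were cut to their strongest 20000. It holds an AP-1 match, shown in capitals because such matches were common in PROLIF-only regions of the genome, 27.8% beside 2.48% in DIFF-only regions and 5.76% in all (chr8:70682304-70682364, plus strand):
Jund -16.6 kb: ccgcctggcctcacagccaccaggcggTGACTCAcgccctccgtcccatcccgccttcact

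The 2 DIFF-only regions lie 5.0 kb after the *Fos* start site (chr12:85478487-85479090) and 59.2 kb before that of *Atf3* (chr1:191242273-191242625), both between genes. The *Fos* region was weak, with a fold enrichment of 3.14, 2.48 and 2.79 at percentiles 45.8, 13.9 and 38.7, and was not DIFF-only with lists of equal length. The *Atf3* region was stronger, with a fold enrichment of 5.88, 6.57 and 5.13 at percentiles 59.8, 53.7 and 56.8, and was DIFF-only at every omission of a library and with lists of equal length. Of the 7 motifs searched, 0 were found within 100 bp of either summit. The bases around both summits are shown beside the PROLIF-only one, in lower case throughout (chr12:85478888-85478948, plus strand, and chr1:191242463-191242523, minus strand):
Fos +5.0 kb: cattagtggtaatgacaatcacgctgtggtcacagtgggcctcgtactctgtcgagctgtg
Atf3 -59.2 kb: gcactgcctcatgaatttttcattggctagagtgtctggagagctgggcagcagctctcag

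Among the 67 window regions with a peak in all 6 libraries, 2 were lower in DIFF and 0 higher by limma over all 40102 such regions (adjusted p under 0.05), where 7.73% of all were lower and 5.93% higher. Without adjustment 10 of the 67 had a p under 0.05, beside 28.0% of all such regions. The mix of classes differs, since 14 of the 67 were at own and 33 at other promoters. Of all 40102 such regions 18840 lay near a start site. Best promoter peaks of genes were called less often, 1.2% lower and 0.623% higher. Called shares of all regions were not counted by class, so the shares above are not matched to the windows. The median difference was 0.00 over the 67 and 0.03 over all regions. By class the medians were -0.02 at own promoters, 0.12 at other promoters and -0.01 at distal regions.

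**Figure D3:**
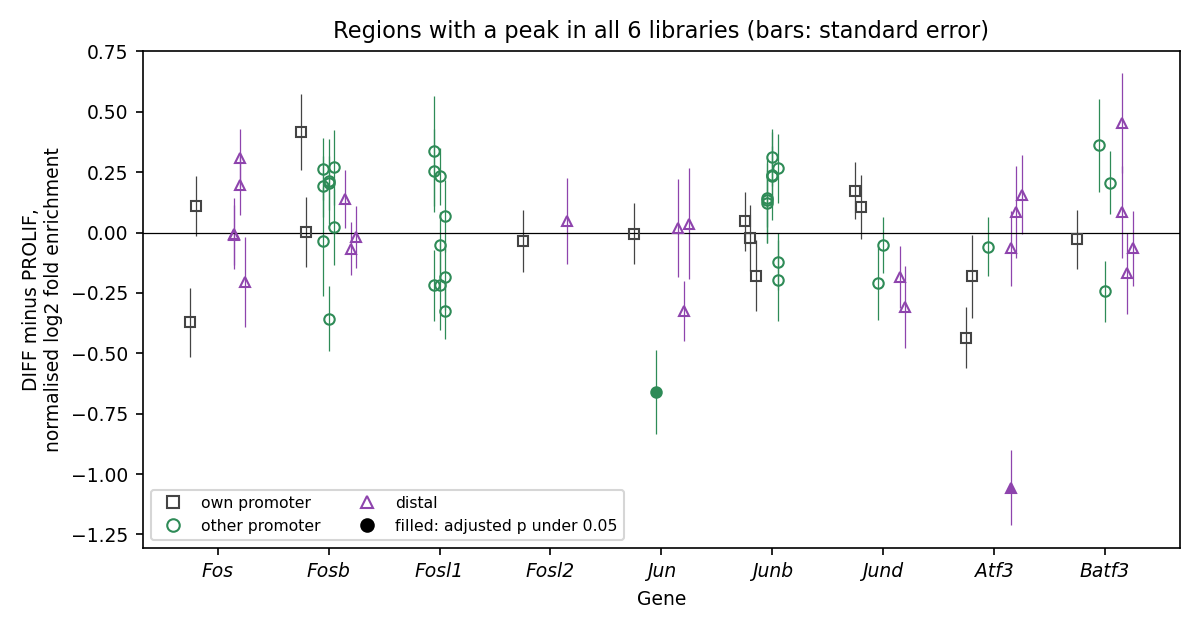
Difference between the states (DIFF minus PROLIF, quantile-normalised log2 fold enrichment, bars are standard errors) for each window region with a peak in all 6 libraries, by gene and class of region. Filled symbols are the 2 regions with adjusted p under 0.05, at *Atf3* (-1.06) and *Jun* (-0.66), and the other 65 lie between -0.44 and 0.45. Regions in both the *Atf3* and the *Batf3* window are drawn for each gene.

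The region that differed most lies 71.3 kb before the *Atf3* start site used here, between genes (chr1:191254347-191254787). *Atf3* has 3 annotated start sites and its gene body reaches chr1:191218039, so this region is nearer to the gene's upstream end. Another region within 3 kb of an annotated *Atf3* start, 33.2 kb before the one used, differed by -0.18 (limma adjusted p = 0.557). Fold enrichment at the -71.3 kb region was 13.3, 8.83 and 7.19 in PROLIF and 4.06, 5.37 and 3.82 in DIFF. Every PROLIF library lay above every DIFF library, with means of 9.78 ± 3.17 and 4.42 ± 0.839 (SD, n = 3). Its percentiles went from 87.5, 72.8 and 67.2 to 39.9, 42.7 and 41.1. The difference was -1.06 (SE 0.16, limma adjusted p = 0.00295), and it passed with every library left out (limma adjusted p at most 0.0152). It was not general to the *Atf3* window, since the region 41.1 kb before the start site, at a promoter of *D730003I15Rik*, stayed at percentiles 94.4, 91.9 and 88.5 in PROLIF and 93.6, 89.0 and 93.7 in DIFF. Beside regions without a call, the *Atf3* window thus held a lower distal region and, between it and the promoter, a region with peaks in DIFF alone. The promoter was lower by its best peak. That call was lost on leaving out any library but PROLIF replicate 1, and was not made for the merged region.

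The second called region lies 14.0 kb after the *Jun* start site, in an intron of the non-coding gene *Gm12703* and within 3 kb of the start of *Gm12704* (chr4:95037681-95038643). It had a fold enrichment of 9.47, 10.3 and 8.58 in PROLIF and 6.47, 5.05 and 5.56 in DIFF, which do not overlap, with means of 9.44 ± 0.849 and 5.70 ± 0.719 (SD, n = 3). The difference was -0.66 (SE 0.17, limma adjusted p = 0.0347). The call was lost without PROLIF replicate 2 or 4 or DIFF replicate 2 or 4 (differences -0.51 to -0.66, limma adjusted p = 0.091 to 0.116). Peak names carry the number of the input data, and within the lower range (2 PROLIF and 1 DIFF library) the difference was -0.27 and within the higher range (1 PROLIF and 2 DIFF libraries) -0.997, with 1 arm a single library each time and no test. The corresponding values at the *Atf3* distal region were -1.12 and -0.97. A neighbouring region 26.1 kb after *Jun*, in an intron of the non-coding gene *Gm12694*, went the same way in every library (chr4:95025886-95026627). It had a fold enrichment of 15.1, 14.2 and 12.6 in PROLIF and 11.2, 10.9 and 10.6 in DIFF, without overlap, and its difference of -0.33 (SE 0.12) did not pass (limma adjusted p = 0.122).

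Both called regions hold the E-box CAGCTG within 100 bp of the summit, as did 38.6% of all regions lower in DIFF and 19.6% of all regions, and neither holds an AP-1 match. The *Jun* region also holds SOX letters (ACAAAG or ACAATG), as did 39.5% of all regions lower in DIFF and 29.1% of all regions. The letters are shown with the E-box in capitals since these are the window regions that changed (chr1:191254583-191254643 and chr4:95038201-95038261, both minus strand):
Atf3 -71.3 kb: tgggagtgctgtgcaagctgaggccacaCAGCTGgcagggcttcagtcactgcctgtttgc
Jun +14.0 kb: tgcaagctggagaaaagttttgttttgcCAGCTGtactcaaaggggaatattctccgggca

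**Figure D4:**
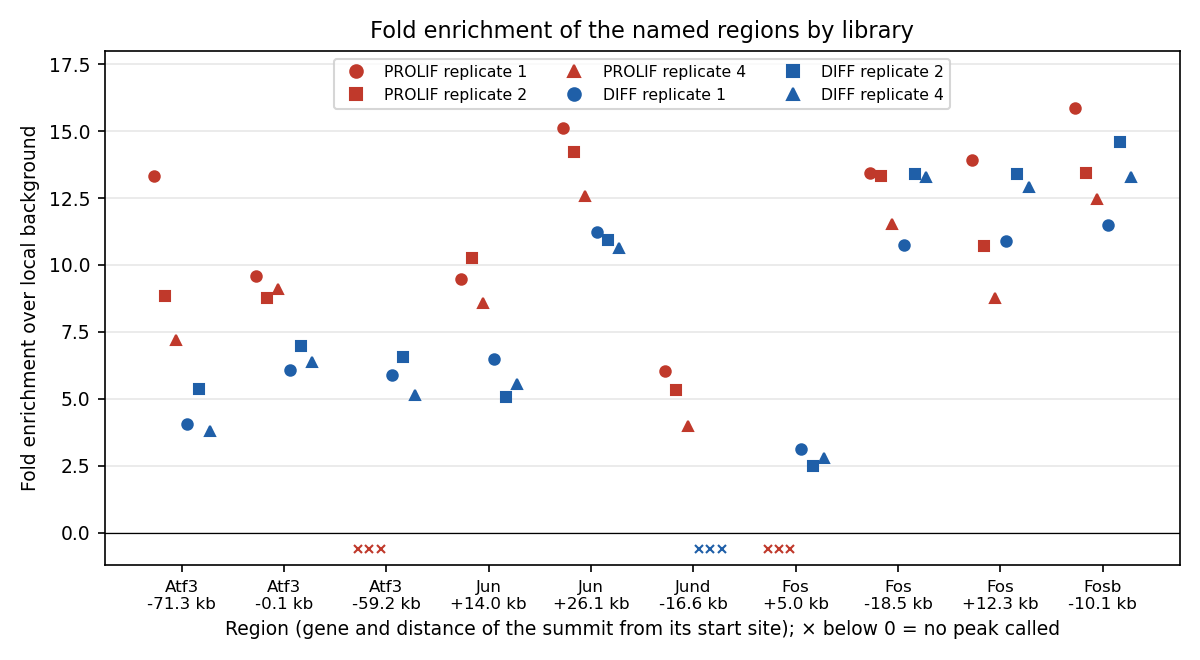
Fold enrichment over local background in the 6 libraries at named regions of *Atf3*, *Jun*, *Jund*, *Fos* and *Fosb* (red PROLIF, blue DIFF, shape by replicate). Crosses below 0 mark libraries with no called peak. The states do not overlap at *Atf3* -71.3 kb, *Atf3* -0.1 kb, *Jun* +14.0 kb and *Jun* +26.1 kb, and they overlap at *Fos* -18.5 kb, *Fos* +12.3 kb and *Fosb* -10.1 kb.

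The strongest distal regions of *Fos* and *Fosb* ranked near the top of every list in both states. The top distal region of *Fos* lies 18.5 kb before its start site, between genes (chr12:85454967-85455985), at a mean percentile of 96.9. Its fold enrichment was 13.4, 13.3 and 11.5 in PROLIF and 10.7, 13.4 and 13.3 in DIFF, and the difference was -0.01 (SE 0.12, limma adjusted p = 0.968). For *Fosb* it lies 10.1 kb before the start site, in an exon of *D830036C21Rik* (chr7:19319474-19320506, mean percentile 94.5), with a fold enrichment of 15.9, 13.4 and 12.5 in PROLIF and 11.5, 14.6 and 13.3 in DIFF. The states overlapped at both, and at *Fosb* the difference was -0.07 (limma adjusted p = 0.755). For *Jun* the top distal region is the one at 26.1 kb. *Jund* had its top distal region 49.4 kb before the start site, in an exon of *Pgpep1* (mean percentile 78.9, difference -0.18, limma adjusted p = 0.413). *Fosl2*, with 4 regions in its window, had it 62.1 kb after the start site (mean percentile 59.2, difference 0.05, limma adjusted p = 0.906). *Atf3* and *Batf3* shared theirs, 62.4 kb after the one and 22.7 kb after the other start site (chr1:191120932-191121153), with percentiles of 61.8, 78.6 and 78.0 in DIFF, 74.8 in PROLIF replicate 4, and no peak in PROLIF replicates 1 and 2. It came first because its mean percentile (73.3) leaves out the libraries with no peak. Among distal regions found in all 6 libraries, the strongest of both genes was also shared. This region lies 57.2 kb after the *Atf3* start site (mean percentile 61.0, difference -0.07, limma adjusted p = 0.84). The top distal regions of *Junb* (mean percentile 26.5, in 3 libraries) and *Fosl1* (percentile 3.78, in DIFF replicate 4 alone) were weak.

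With all classes of region pooled, AP-1 matches were about as frequent around the AP-1 genes as elsewhere. They were found within 100 bp of the summit in 8 of 142 window regions (5.63%), beside 5.76% of all regions. The windows are richer in start sites, and among distal regions alone it was 3 of 62 (4.84%), beside 6.44% of all distal regions. Of the window regions with a peak in all 6 libraries 5 of 67 held one (7.46%, beside 4.55% of all such regions). With matches counted within 50 bp the share was 2.99%, beside 2.62%. The matches were spread over 6 genes. *Fosl2* had one 53 bases after its start site, and those of *Fosb*, *Junb*, *Jund*, *Atf3* and *Batf3* were distal or at promoters of other genes. SOX letters (ACAAAG or ACAATG) were found in 18.3% of window regions, beside 29.1% of all, and in 17.7% of distal window regions, beside 32.3% of all distal regions.

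None of the 5 window regions that held an AP-1 match and a peak in all 6 libraries was called by limma, where 29.0% of all such regions with a match were lower in DIFF and 2.79% higher. Of the 5, only the *Batf3* -29.7 kb region is distal, and the others lie near start sites. The shares of all regions pool both classes and were not split, so they are not matched to these few regions. A region 23.0 kb before *Fosb*, in an intron of *D830036C21Rik* and near the start of *Gm44698*, had a fold enrichment of 9.53, 9.08 and 5.48 in PROLIF and 6.72, 9.10 and 7.21 in DIFF (difference 0.02, limma adjusted p = 0.949). Another 29.7 kb before *Batf3*, in an intron of *Nsl1*, had 6.04, 3.05 and 3.12 in PROLIF and 5.14, 4.30 and 4.99 in DIFF (difference 0.45, limma adjusted p = 0.191). PROLIF replicate 1 was the highest library at both, and the states overlapped. Both are shown beside the *Jund* region above, with the AP-1 letters in capitals (chr7:19333052-19333112, minus strand, and chr1:191068591-191068651, plus strand):
Fosb -23.0 kb: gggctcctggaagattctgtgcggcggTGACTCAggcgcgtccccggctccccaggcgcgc
Batf3 -29.7 kb: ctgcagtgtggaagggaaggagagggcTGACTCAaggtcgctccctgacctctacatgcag

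Partners and regulators of AP-1 also had open promoters in both states. Of 10 other bZIP genes (*Jdp2*, *Batf*, *Batf2*, *Atf2*, *Atf7*, *Maf*, *Maff*, *Mafg*, *Mafk* and *Nfe2l2*), 9 had a promoter peak in all 6 libraries and *Batf*, a lymphocyte factor, had none in any. Of these 9, 1 was lower in DIFF and 0 higher, with a median difference of -0.03, beside the 1.2% lower and 0.623% higher of all promoters tested. The lower one was *Nfe2l2*, which encodes the oxidative stress factor NRF2, with a fold enrichment of 11.6, 8.43 and 9.28 in PROLIF and 6.48, 7.89 and 6.54 in DIFF. These do not overlap, and the difference was -0.49 (SE 0.10, limma adjusted p = 0.0415). This call is near the threshold, and whether it held in the alternative runs was not examined. Of 11 regulators upstream of AP-1 genes (*Srf*, *Elk1*, *Elk3*, *Elk4*, *Creb1*, *Crem*, *Mapk3*, *Mapk8*, *Mapk9*, *Mapk10* and *Mapk14*), all 11 had a promoter peak in every library and 0 were called against that same background, with a median of 0.00. The largest differences were 0.30 at *Mapk3*, the ERK1 kinase (limma adjusted p = 0.202), and -0.21 at *Elk1*, the SRF partner (limma adjusted p = 0.282).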

How the data were processed

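ATAC-seq was analysed in 3 PROLIF and 3 DIFF libraries of Srr2 del/del cultures, grouped by their labels. Per the study's methods and the labels' processing notes, the authors checked reads with FastQC and MultiQC, trimmed them with Cutadapt and Trimmomatic, and used Bowtie2 for alignment to GRCm38 (mm10). Duplicates were marked by Picard. MACS2 then called narrow peaks in each library on its own at a false discovery rate of 0.05. Versions, a transposase shift and a blacklist are not given in the sources used here. The deposited lists give each peak's fold enrichment (a ratio to local background), its −log10 p-value and −log10 q-value, and a score, which is 10 times the −log10 q-value and was not used further. They hold no read counts, so no intervals for counting error are given, and a missing peak means a signal under the caller's threshold, not closed chromatin.

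Only assembled chromosomes were used. Peaks overlapping by at least 1 bp were merged across libraries. A region took each library's highest fold, and a promoter the fold of the peak with the highest −log10 p within 3 kb of any annotated start (GENCODE M21). Distances run from the coding start nearest the promoter summit, and negative ones are upstream. Log2 fold was quantile-normalised over features with a peak in all 6 libraries and tested with limma 3.58.1 in R 4.3.3, with Benjamini-Hochberg adjustment over all of them and a threshold of 0.05. The region fit alone was tested on simulated data. The planted differences were larger than those called here, so that test does not cover calls of this size. With 3 libraries against 3, an exact permutation test cannot go below 0.1, so none is given for single values. Other steps used Python 3.11.15, numpy 2.4.6 and pandas 2.3.3. Nothing beyond the study's wording says how separate the cultures were, so p-values measure the spread among these libraries. Both strands were searched up to 100 bp from the summit of the strongest library for these motifs: AP-1 (TGAGTCA or TGACTCA), CRE (TGACGTCA), the CArG box, SOX (ACAAAG or ACAATG), the E-boxes CAGATG and CAGCTG, and the NFI half-site TTGGCA. No motif is contained in another.

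Named regions were those of 1 state alone, those past the threshold, and each gene's strongest distal region (over 3 kb from any start). Strongest means the highest mean percentile, and mean percentiles were taken over the libraries with a peak. Other named regions were chosen after their values were seen. Of the 2 gene lists, genes past the threshold or else the 2 largest differences were named. One gene of each list is not reported here and was left out of its counts. The genes, windows, lists and motifs were chosen with earlier results of these data known. Alternatives were another scale, 2 other centrings, a q of 0.01, other list lengths, windows and distances, the replicate number as a block, and leaving out each library. The comparison within ranges of input data numbers was added after seeing the data.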

Additional observations from a re-analysis of the deposited data

How the results depend on the processing

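Direction was kept by the 3 called differences in every alternative run. The *Atf3* -71.3 kb region was called in each of them that gave a test (limma adjusted p 0.00143 to 0.03). The *Atf3* promoter, the 1 called AP-1 promoter, was lost (0 called) on centring per chromosome, and leaving out 1 library gave 0 to 1 calls. Within the lower and higher input data numbers, a split chosen after seeing the data that leaves 1 library in an arm and allows no test, the values were -0.51 and -0.51. The *Jun* +14.0 kb region was lost on the logit of the percentile (limma adjusted p = 0.139), which called *Jun* +26.1 kb and the *Atf3* promoter region instead, so that 3 window regions were called. Centring per chromosome and equal list length also gave 3, adding *Fosl1* +26.2 kb and the *Atf3* promoter region. Leaving out 1 library gave 1 to 4 called window regions, with the *Atf3* promoter region lower and *Batf3* -29.7 kb higher in DIFF without PROLIF replicate 1, and *Fosb* +1.4 kb, *Jund* -31.7 kb and *Jund* -42.5 kb higher without PROLIF replicate 4. Over all genes the promoter calls were 88 higher and 170 lower, and 305 and 116 on the logit scale.

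PROLIF-only regions numbered 2 in place of 1 when a peak had to cover 50% of the region, and 1 to 2 on leaving out a library. DIFF-only regions numbered 1 in place of 2 among the strongest 20000 peaks, and 3 to 6 on leaving out a library. Among the strongest 20000 peaks the PROLIF-only region was *Atf3* -71.3 kb and the DIFF-only one *Jund* -42.5 kb. The number of genes whose window peaks separated the states was 0 in place of 1 at equal list length, among the strongest 20000 peaks and in 25 kb windows, and 1 to 3 on leaving out a library, *Fosb* each time. The AP-1 share of shared window regions was 2.99% within 50 bp in place of 7.46%, and 6.67% to 7.46% on leaving out a library. The cause of these changes was not tested.

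Libraries of the same replicate number correlated at 0.0733, 0.122 and 0.105 in their deviations from the state means, and others at -0.0914 to -0.0034. Every library thus correlated best with its own number, a hint from the data and not the design, and not every pair passed 0.1, so libraries were not treated as paired. With the number as a block limma calls were the same (*Atf3* promoter adjusted p = 0.0426, *Jun* +14.0 kb 0.0443). Counted over same-numbered pairs, 2 regions were PROLIF-only (1.41%, beside 6.3% of all regions) and 14 DIFF-only (9.86%, beside 11.1%). Window peaks separated the states at 2 genes, *Fosb* lower and *Atf3* higher, beside 16.5% of all genes lower and 15.2% higher. Read depth was not used here, and a weak peak can fall under the caller's threshold in 1 library, which limits the counts of regions in 1 state.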

Other observations

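Some window regions leaned to 1 state without meeting the definition of a region in 1 state alone. A peak in every DIFF and 1 to 2 PROLIF libraries was found at 17 of the 142 regions, beside 8.35% of all regions. The reverse was found at 4, beside 4.26% of all regions. Several of the 17 lacked a peak in PROLIF replicate 4 alone, the shortest list (60006 peaks). These were *Fosb* +18.6 kb and -32.8 kb, *Fosl1* +0.1 kb, *Fosl2* -33.1 kb, *Jund* -42.5, -31.7 and +22.0 kb, and *Atf3* +10.7 kb. The part of list length in these counts was not tested. The following examples were chosen after their values were seen. A region 42.5 kb before *Jund* had percentiles of 52.9 and 45.3 in PROLIF replicates 1 and 2, no peak in PROLIF replicate 4, and 78.6, 79.9 and 84.1 in DIFF. A region 2.1 kb after the *Jun* start site had a percentile of 25.1 in PROLIF replicate 1, no peak in the other PROLIF libraries, and 42.7, 54.8 and 60.1 in DIFF. A region 37.6 kb before *Fos* had a peak in PROLIF replicate 4 alone among the PROLIF libraries (percentile 25.9) and percentiles of 33.7, 30.6 and 34.6 in DIFF. Leaning to PROLIF, a region 45.5 kb before *Jund* had percentiles of 56.5, 16.9 and 6.77 in PROLIF, 21.7 in DIFF replicate 1 and no peak in the other DIFF libraries. None of these could be tested by limma, which needed a peak in all 6 libraries. A promoter region 1.7 kb before the *Fos* start site had a fold enrichment of 6.71, 4.89 and 5.14 in PROLIF and 3.83, 3.73 and 4.65 in DIFF. It was lower in every DIFF library by fold but not by percentile, and its difference of -0.37 did not pass (limma adjusted p = 0.124).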
